A study of Mus musculus with 8 samples.

Results

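Mitochondrial fatty acid oxidation was examined here through 34 listed genes that act from the uptake and activation of fatty acids to the last step of the oxidation spiral, with their regulators. The genes were chosen by name from a list of the pathway, but with earlier results of these data known. Shares of the list set beside those of all genes are therefore descriptions, and no list was tested. A gene was measured where a probe set carried its symbol alone, and where several did, the probe set with the highest mean over all arrays stood for it. This held for 31 of the 34 genes, out of 22180 genes measured in all, and each of the 31 had a single probe set. Acsl3 and Cpt1b shared their probe sets with other symbols, and Acsl1 had none under its symbol in the annotation used, so these were not analysed here. The list names no enzyme of ketone body formation, and that branch is described from a separate list.

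The samples were endothelial cells sorted from mouse colon 2 days after transplantation of bone marrow and T cells. For allogeneic recipients this time is early in graft-versus-host disease, in which donor T cells attack tissues of the recipient. In the allogeneic group (n = 4) the donor strain was LP/J, and in the syngeneic group (n = 4) donor and recipient were both C57BL/6. Every recipient in either group was a female C57BL/6 mouse conditioned for 5 days with busulfan and cyclophosphamide, and no untreated mouse was included. Ages are not given in the labels. Cells that displayed CD31 without CD45 or CD11b were collected, and RNA of each sample went onto 1 Affymetrix Mouse Gene 2.0 array after amplification from picogram amounts. Signals are log2 values normalized by the authors with RMA, so that a difference of 1 is a 2-fold difference. Replicates are separate mice according to the design text, and changes are given as allogeneic minus syngeneic.

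Fatty acids enter the cell with the help of transport proteins and are tied to coenzyme A by acyl-CoA synthetases. Long chains cross into the mitochondrion as carnitine esters, which CPT1 makes at the outer membrane, the carnitine carrier moves inward and CPT2 turns back into acyl-CoA. In the matrix, dehydrogenation, hydration, a further dehydrogenation and thiolysis then shorten the chain again and again. Membrane-bound enzymes take part in the oxidation of long chains, and soluble matrix enzymes serve medium and short ones. PPAR-alpha and its coactivator PGC-1alpha switch on many of these genes in liver, muscle and intestine, and colonocytes use the same matrix enzymes to burn butyrate made by bacteria.

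The sequences before the start sites of some genes on which the results turn are shown first, from RefSeq (GRCm38.p6). Nuclear receptors act through short motifs in such regions. Windows of 250 bases before and 50 after a start were at hand for 29 of the 31 genes. None was at hand for Decr1 or for Acaa2, a gene called below. In the stretches below, read 5′ to 3′, capitals mark 3 motifs on either strand: AGGTCA, to which nuclear receptors bind, the CCAAT box, and the box GGGCGG bound by Sp1. The first stretch is the whole of the 272 bases between the start of Hadha, on the minus strand, and that of Hadhb, on the plus strand (chr5:30154981-30155252, plus strand). The others are the 250 bases before the starts of Acadm (chr3:153944644-153944893, minus strand), Acads (chr5:115119347-115119596, minus strand) and Cpt1a (chr19:3323051-3323300, plus strand).
Hadha to Hadhb: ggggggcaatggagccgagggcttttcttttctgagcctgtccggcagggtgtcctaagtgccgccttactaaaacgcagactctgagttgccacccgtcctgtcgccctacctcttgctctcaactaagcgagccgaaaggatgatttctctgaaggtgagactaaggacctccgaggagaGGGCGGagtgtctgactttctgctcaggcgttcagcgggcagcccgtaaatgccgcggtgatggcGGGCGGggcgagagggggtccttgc
Acadm: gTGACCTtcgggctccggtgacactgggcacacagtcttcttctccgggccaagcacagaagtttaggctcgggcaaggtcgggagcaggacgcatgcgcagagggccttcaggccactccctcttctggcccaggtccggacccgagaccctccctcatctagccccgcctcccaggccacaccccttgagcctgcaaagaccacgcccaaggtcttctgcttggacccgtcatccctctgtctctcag
Acads: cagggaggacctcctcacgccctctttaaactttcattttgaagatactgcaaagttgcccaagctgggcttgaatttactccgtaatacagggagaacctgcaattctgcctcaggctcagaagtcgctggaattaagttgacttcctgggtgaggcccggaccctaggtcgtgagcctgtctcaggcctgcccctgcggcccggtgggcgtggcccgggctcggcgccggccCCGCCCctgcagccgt
Cpt1a: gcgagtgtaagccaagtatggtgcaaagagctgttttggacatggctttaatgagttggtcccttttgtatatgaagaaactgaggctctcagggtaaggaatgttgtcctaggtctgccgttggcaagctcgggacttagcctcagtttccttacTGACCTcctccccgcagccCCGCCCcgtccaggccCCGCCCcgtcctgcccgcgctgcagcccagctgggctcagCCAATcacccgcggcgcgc

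Acadm and Cpt1a each held AGGTCA once, with the first base of the match at position -249 for Acadm and -94 for Cpt1a, counted back from the start site. The stretch between Hadha and Hadhb held none, nor did that of Acads. Among the 29 genes with a window, 8 held AGGTCA in at least 1 window. It was in 9 of their 33 windows, or 27.3%, against 16.3% of all 32851 windows. The direct repeat of this motif with 1 base between, a form bound by PPAR with RXR, was searched as an exact string. It was in 0 of the 33 windows and in 0.0396% of all windows. TNAAGGTCA, a form bound by ESRRA, was in 0 of the 33 and in 1.28% of all. Both strings are too rare for 0 matches in 33 windows to show whether these genes lack such sites. These matches are of letters only, and an AGGTCA within a longer motif was counted under each.

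On the allogeneic arrays 4 of the 31 genes rose and none fell (limma, Benjamini-Hochberg over all genes, adjusted p below 0.05). The share was 12.9%, against 0.356% of all genes called higher and 0.113% called lower. The 4 were Acadm, Acads, Hadha and Acaa2, all enzymes of the matrix spiral. A positive change was found for 26 of the 31 genes (83.9%, against 49.0% of all genes). At an unadjusted p below 0.05 there were 17 higher members (54.8%, against 7.81%) and no lower one (against 5.43%). All 4 allogeneic arrays lay above all 4 syngeneic arrays for 13 members (41.9%, against 5.18% of genes), and for none did they lie below (against 3.36%). The median change of the 31 genes was 0.35, beside -0.01 over all genes, and single changes ranged between -0.47 and 1.21. With the epithelial marker mean described below as a covariate the median was 0.22 and 24 members were positive, and with the endothelial mean it was 0.23, again with 24. Leaving out syngeneic arrays 3 and 4 gave a median of 0.23 and 22 positive members.

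**Figure D1:**
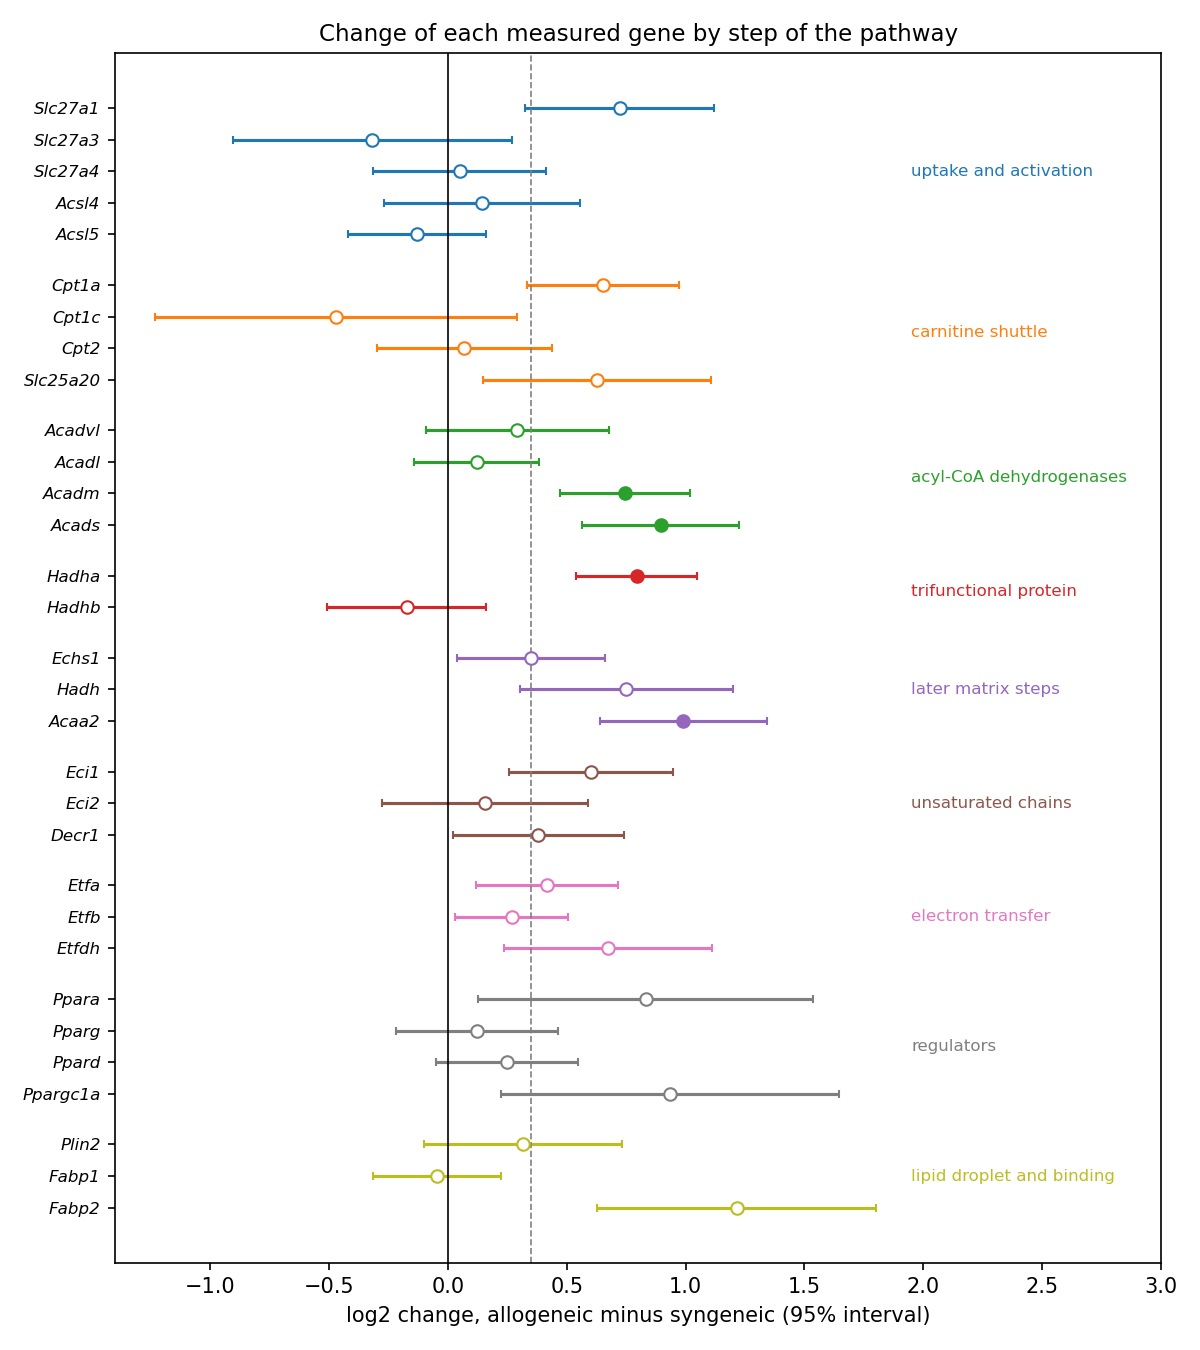
Log2 change (allogeneic minus syngeneic, horizontal axis) of the 31 measured genes, grouped by step, with 95% intervals from limma. Filled points passed an adjusted p below 0.05 (Acadm, Acads, Hadha and Acaa2), the solid line is no change and the dashed line is the members' median of 0.35.

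The sorted samples were checked against markers of the cells they could hold. The 20 pan-endothelial markers averaged between 7.69 and 8.40 on the allogeneic arrays and between 8.0 and 9.92 on the syngeneic arrays, and all 20 had a negative change, though none passed. Colon epithelial markers were bright as well: 19 of 20 were measured, with averages between 10.49 and 10.66 on allogeneic and between 9.93 and 10.53 on syngeneic arrays. Of these 17 had a positive and 2 a negative change, with a median of 0.18, and none passed. The largest change was that of Aqp8, at 1.53 (limma adjusted p = 0.0575), with all allogeneic arrays above all syngeneic arrays. Ptprc and Itgam, which encode the excluded CD45 and CD11b, averaged 5.20 and 5.34 over all arrays. They belong to a list of 11 measured leukocyte markers, of which Lyz2 (6.70) and Cd68 (6.62) were the brightest. Of the 11, 4 had a positive and 7 a negative change, and none passed. The 5 adipocyte markers averaged 4.73 in allogeneic and 4.88 in syngeneic samples. Stroma and muscle markers were bright too, with a mean of the 11 between 7.78 and 8.60 on allogeneic and between 7.74 and 8.38 on syngeneic arrays. None of these passed: 5 had a positive change and 6 a negative one. The positive ones were the fibroblast genes Pdgfra (1.03), Lum (0.83), Dcn (0.51), Col1a1 (0.21) and Col1a2 (0.06). Among the negative ones were the fibroblast gene Col3a1 (-0.12), the muscle gene Des (-0.63) and the pericyte gene Pdgfrb (-0.53). In such bulk samples fewer cells of a type and less RNA per cell cannot be told apart, and a change in these enzymes cannot be assigned to endothelial, epithelial or stromal cells. Syngeneic array 4 had the lowest epithelial and the highest endothelial mean, and syngeneic array 3 the next. These same 2 arrays were the lowest of the 8 for 15 and 11 of the 31 genes, while allogeneic array 4 was the highest for 16 and also had the highest stroma and muscle mean. The part of these marker differences in the results was not tested beyond the epithelial and endothelial fits given next.

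With the epithelial list mean of each array as a covariate none of the 4 genes passed (limma adjusted p between 0.13 and 0.209), with log2 changes of 0.57 for Acadm, 0.75 for Acads, 0.66 for Hadha and 0.87 for Acaa2. With the endothelial list mean in its place their changes were 0.63, 0.83, 0.70 and 0.95, and none passed. Without syngeneic arrays 3 and 4, Hadha passed (limma adjusted p = 0.0485) with a change of 0.73, and Acadm, Acads and Acaa2 did not, at 0.65, 0.78 and 0.86. Leaving out allogeneic array 1, 2 or 4 or syngeneic array 1 or 3 ended all 4 calls, as did a fit over all 41345 probe sets, in which the adjusted p was between 0.0639 and 0.0927.

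**Figure D2:**
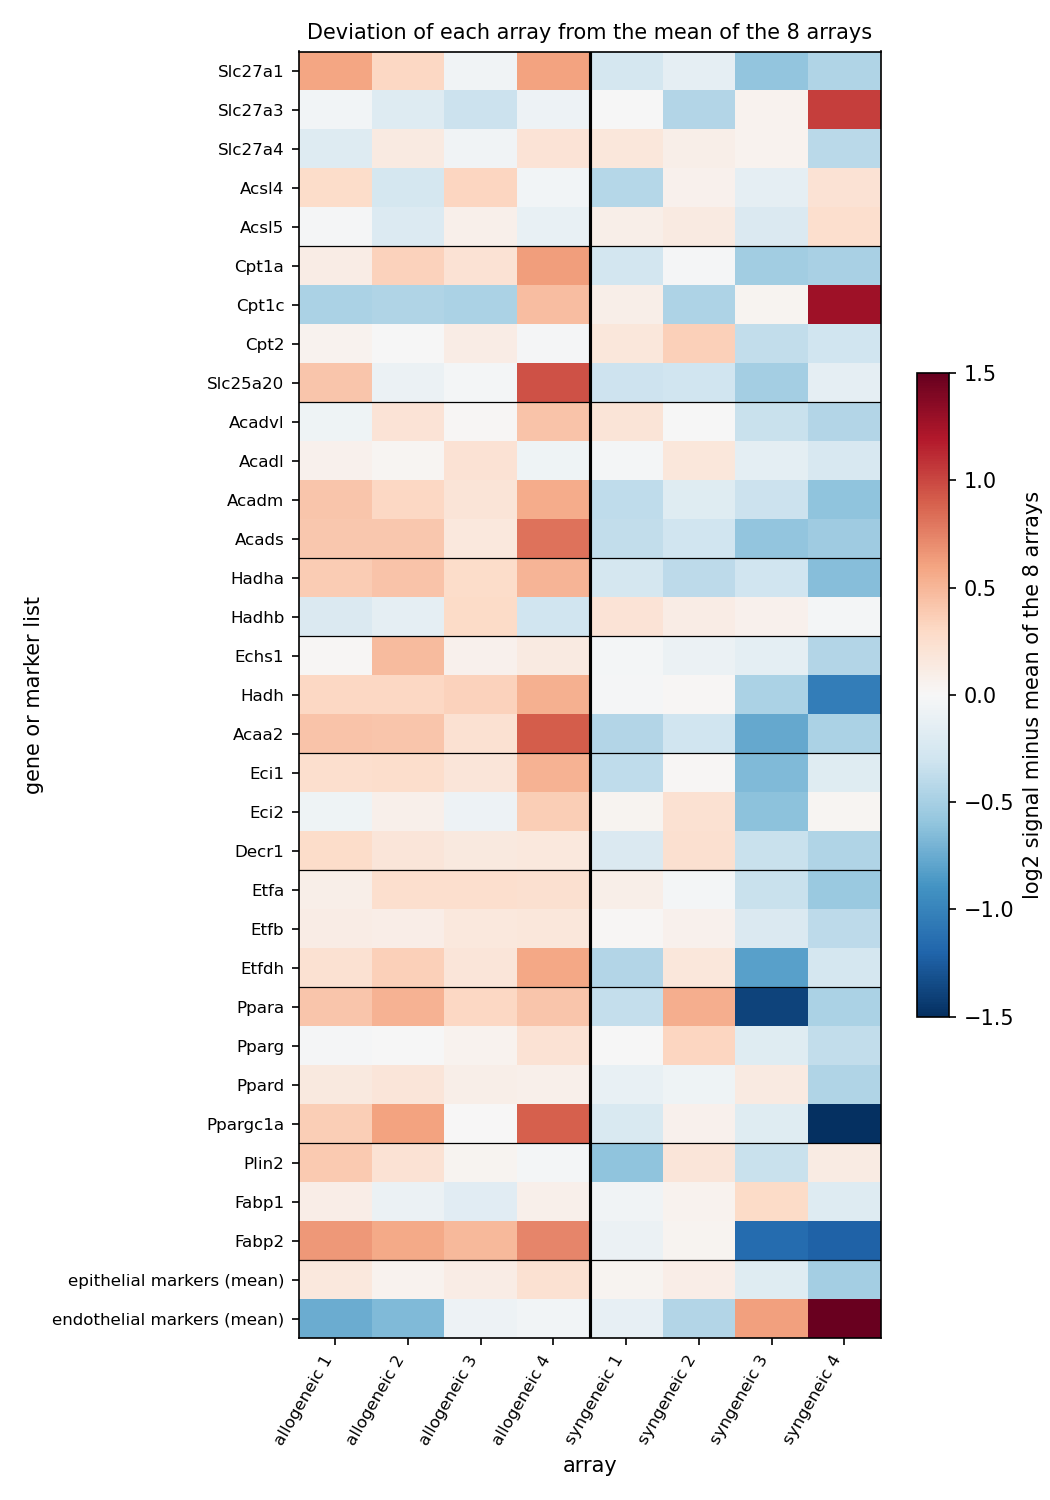
Deviation of each of the 8 arrays (columns, allogeneic left of the line) from the mean of all arrays, on the log2 scale, for each gene and for the means of the epithelial and endothelial marker lists. Red is above and blue below that mean. Acadm, Acads, Hadha and Acaa2 are red on all allogeneic and blue on all syngeneic arrays, and syngeneic arrays 3 and 4 have the highest endothelial means.

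The acyl-CoA dehydrogenases open each turn of the spiral, and each of the 4 prefers chains of another length. Acadm, the medium-chain dehydrogenase, read 9.95, 9.84, 9.72 and 10.09 on allogeneic arrays 1 to 4, against 9.15, 9.34, 9.20 and 8.92 on syngeneic arrays 1 to 4. The groups were well apart, and it rose 1.68-fold (0.74 ± 0.12 SE, limma adjusted p = 0.0343). Acads, which takes short chains such as butyrate, read 9.13, 9.13, 8.88 and 9.53 on allogeneic arrays 1 to 4, against 8.36, 8.42, 8.13 and 8.19 on syngeneic arrays 1 to 4. It too rose without overlap, 1.86-fold (0.90 ± 0.15 SE, limma adjusted p = 0.0344), with allogeneic array 4 the highest.

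The dehydrogenases of longer chains were not called. Acadvl, the very-long-chain enzyme of the inner membrane, read 7.89, 8.16, 7.97 and 8.39 on allogeneic arrays 1 to 4, against 8.15, 7.95, 7.62 and 7.52 on syngeneic arrays 1 to 4. The groups overlapped, since syngeneic array 1 was above allogeneic arrays 1 and 3 and close to array 2, and the change was 0.29 ± 0.17 SE, limma adjusted p = 0.518. Without syngeneic arrays 3 and 4 it was 0.049. Acadl, the long-chain dehydrogenase, read 9.53, 9.50, 9.68 and 9.40 on allogeneic arrays 1 to 4, against 9.45, 9.64, 9.33 and 9.22 on syngeneic arrays 1 to 4. Its arrays were mixed, with a change of 0.12 ± 0.12 SE, limma adjusted p = 0.723 and a 95% interval between -0.14 and 0.38. That interval leaves out changes as large as those measured for Acadm and Acads.

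Hadha and Hadhb encode the alpha and beta subunits of the trifunctional protein, which carries out the remaining steps for long chains, and they run away from each other on either side of the stretch shown above. Hadha read 9.72, 9.77, 9.61 and 9.86 on allogeneic arrays 1 to 4, against 9.08, 8.96, 9.05 and 8.71 on syngeneic arrays 1 to 4. It rose 1.73-fold (0.79 ± 0.12 SE, limma adjusted p = 0.0238), and its lowest allogeneic value was above its highest syngeneic value by more than the whole spread of either group. Hadhb read 4.99, 5.07, 5.49 and 4.91 on allogeneic arrays 1 to 4, against 5.40, 5.31, 5.27 and 5.17 on syngeneic arrays 1 to 4. The groups overlapped with a change of -0.17 ± 0.15 SE, limma adjusted p = 0.682 and a 95% interval between -0.51 and 0.16, which does not reach the change of its partner. Each subunit rests on 1 probe set, and how far that of Hadhb answers to its transcript was not tested.

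For medium and short chains the same steps are taken by soluble enzymes. Acaa2, the thiolase that releases acetyl-CoA, read 9.77, 9.76, 9.58 and 10.25 on allogeneic arrays 1 to 4, against 8.90, 9.05, 8.58 and 8.87 on syngeneic arrays 1 to 4. It had the largest change of the 4 called genes, 1.99-fold (0.99 ± 0.16 SE, limma adjusted p = 0.0339), and no overlap. Hadh, the 3-hydroxyacyl-CoA dehydrogenase, read 10.81, 10.82, 10.86 and 11.04 on allogeneic arrays 1 to 4, against 10.49, 10.53, 10.04 and 9.47 on syngeneic arrays 1 to 4. The allogeneic arrays were close together and above all syngeneic arrays, which spread over more than 1 unit, and the change of 0.75 ± 0.20 SE, limma adjusted p = 0.139 did not pass. It was 0.37 without syngeneic arrays 3 and 4, 0.27 with the epithelial covariate and 0.41 with the endothelial one. Echs1, the short-chain enoyl-CoA hydratase, read 8.94, 9.39, 8.98 and 9.06 on allogeneic arrays 1 to 4, against 8.89, 8.83, 8.77 and 8.47 on syngeneic arrays 1 to 4. These groups did not overlap but nearly touched, and the change was 0.35 ± 0.14 SE, limma adjusted p = 0.315. In those 3 fits it was 0.23, 0.22 and 0.20.

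**Figure D3:**
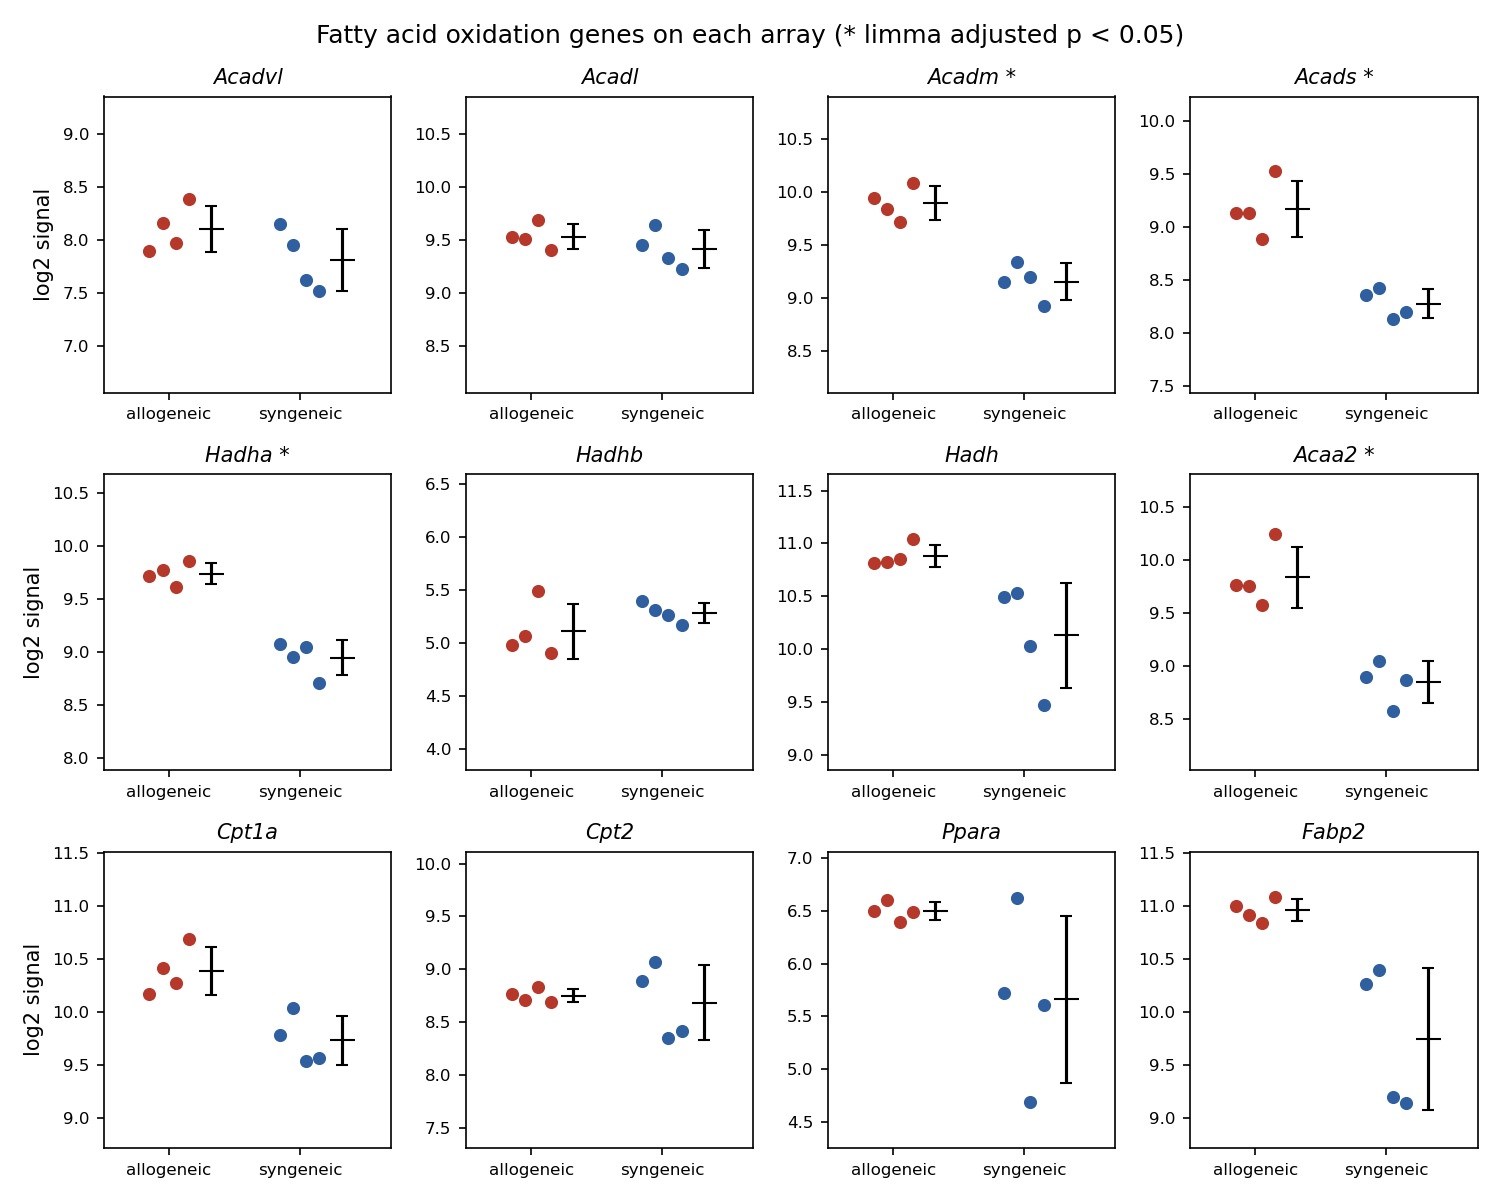
Log2 signal of 12 genes on each array (points, allogeneic in red, syngeneic in blue), with mean and SD of the 4 arrays beside them; every panel spans the same 2.8 log2 units. Acadm, Acads, Hadha and Acaa2, marked with a star, have no overlap between groups, whereas Acadvl, Acadl, Hadhb, Cpt2 and Ppara do.

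Set side by side by chain length, the 5 enzymes for medium and short chains (Acadm, Acads, Echs1, Hadh and Acaa2) had a median change of 0.75. Of these 3 were called, and in all 5 the groups did not overlap, where over all genes 0.356% were called higher and 5.18% had all allogeneic arrays above. The 4 genes of the spiral for long chains (Acadvl, Acadl, Hadha and Hadhb) had a median of 0.21, with Hadha alone called and alone without overlap. The carnitine shuttle, which brings long chains in, is not part of either set. Its genes had changes of 0.65 (Cpt1a), 0.63 (Slc25a20), 0.07 (Cpt2) and -0.47 (Cpt1c). The mean signal of the first set minus that of the second was 1.69, 1.66, 1.41 and 1.85 on the allogeneic arrays, against 1.14, 1.27, 1.13 and 1.13 on the syngeneic arrays. The distance between the sets was thus larger on every allogeneic array. It is a description over so few genes and was not tested. The long chain set includes Hadhb, whose single probe set averaged 5.20 over all arrays, beside 9.34 for Hadha and array medians of 4.68 to 4.79. How far that dim probe set answers to its transcript, and so its part in this distance, was not tested. The medium and short chain median was 0.65 without syngeneic arrays 3 and 4, 0.57 with the epithelial covariate and 0.63 with the endothelial one. The long chain median was 0.018, 0.0088 and 0.065 in these fits.

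**Figure D4:**
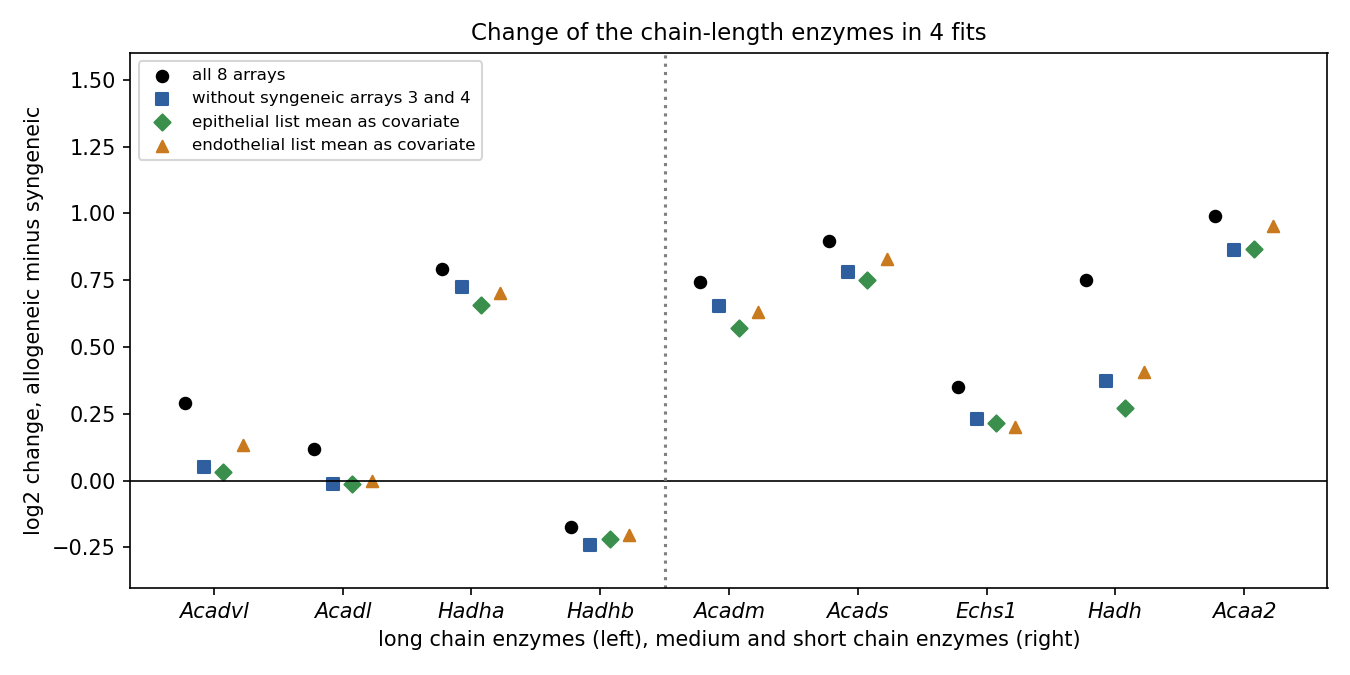
Log2 change of the 9 chain-length enzymes (long chain left of the dotted line) in the fit of all 8 arrays, without syngeneic arrays 3 and 4, and with an epithelial or endothelial list mean as covariate. Acadm, Acads, Hadha and Acaa2 stay between 0.57 and 0.99, while Acadl is at most 0.12 and Hadhb is below 0 in each fit.

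The 5 genes of fatty acid transport and activation had a median change of 0.05, and none passed. With the epithelial covariate that median was 0.21, and with array weights it was -0.050. Slc27a1, which encodes the transport protein FATP1 and also makes acyl-CoA, read 7.32, 7.04, 6.68 and 7.34 on allogeneic arrays 1 to 4, against 6.47, 6.60, 6.14 and 6.28 on syngeneic arrays 1 to 4. It was higher on all allogeneic arrays, at 0.72 ± 0.18 SE, limma adjusted p = 0.117, without passing. The other transport genes Slc27a3 (-0.32 ± 0.27 SE) and Slc27a4 (0.05 ± 0.16 SE) and the long-chain synthetase genes Acsl4 (0.14 ± 0.19 SE) and Acsl5 (-0.13 ± 0.13 SE) overlapped between groups. Slc27a3 had 7.36 on syngeneic array 4 and at most 6.38 on any other array, so its negative value rests on that array: it was -0.03 without it. Slc27a4 changed sign between fits.

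The carnitine shuttle was split. Cpt1a, the liver-type enzyme at the entry point and the main site of control by malonyl-CoA, read 10.17, 10.41, 10.28 and 10.69 on allogeneic arrays 1 to 4, against 9.79, 10.04, 9.54 and 9.57 on syngeneic arrays 1 to 4. All allogeneic values were above all syngeneic ones, and the change of 0.65 ± 0.14 SE, limma adjusted p = 0.0869 did not pass. Of 21 alternative fits it passed in 1, without syngeneic array 2 (limma adjusted p = 0.044). The change was 0.47 without syngeneic arrays 3 and 4, 0.46 with the epithelial covariate and 0.55 with the endothelial one. It passed in none of these 3 fits (limma adjusted p = 0.274, 0.394 and 0.24). Slc25a20, the carnitine-acylcarnitine carrier of the inner membrane, read 8.65, 8.15, 8.20 and 9.19 on allogeneic arrays 1 to 4, against 7.93, 7.94, 7.72 and 8.10 on syngeneic arrays 1 to 4. Its groups were also apart, at 0.63 ± 0.22 SE, limma adjusted p = 0.241, with allogeneic array 4 the highest.

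Cpt2, the enzyme at the inner side, read 8.77, 8.72, 8.83 and 8.70 on allogeneic arrays 1 to 4, against 8.89, 9.07, 8.36 and 8.42 on syngeneic arrays 1 to 4. The allogeneic arrays lay within the syngeneic range, and the change was 0.07 ± 0.17 SE, limma adjusted p = 0.905, with an interval between -0.30 and 0.44. Cpt1c, a brain form with little enzyme activity, had -0.47 ± 0.34 SE and was highest on syngeneic array 4, at 7.83. Its direction turned with either marker list as a covariate.

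Unsaturated chains need further enzymes that shift or reduce double bonds. Eci1, a mitochondrial enoyl-CoA isomerase, read 9.01, 9.03, 8.94 and 9.28 on allogeneic arrays 1 to 4, against 8.38, 8.78, 8.10 and 8.59 on syngeneic arrays 1 to 4. It was higher on all allogeneic arrays without passing (0.60 ± 0.16 SE, limma adjusted p = 0.127). Eci2, a related isomerase also found in peroxisomes, had 0.16 ± 0.20 SE, and Decr1, the dienoyl-CoA reductase, 0.38 ± 0.16 SE. The change of Decr1 was 0.16 with the epithelial covariate. Both overlapped: syngeneic array 2 lay within the allogeneic range for Decr1, and syngeneic arrays 1, 2 and 4 did for Eci2.

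Electrons from the acyl-CoA dehydrogenases pass to ETF, made of the products of Etfa and Etfb, and on to ubiquinone through the product of Etfdh. Etfdh read 8.41, 8.55, 8.37 and 8.76 on allogeneic arrays 1 to 4, against 7.74, 8.36, 7.37 and 7.92 on syngeneic arrays 1 to 4. Its groups just failed to touch, at 0.67 ± 0.20 SE, limma adjusted p = 0.166. Etfb read 10.67, 10.67, 10.72 and 10.73 on allogeneic arrays 1 to 4, against 10.58, 10.63, 10.35 and 10.17 on syngeneic arrays 1 to 4. The change was small, 0.27 ± 0.11 SE, limma adjusted p = 0.315, and Etfa had 0.42 ± 0.14 SE with allogeneic array 1 level with syngeneic array 1. None of the 3 passed, and their median change of 0.42 was 0.18 without syngeneic arrays 3 and 4, 0.16 with the epithelial covariate and 0.23 with the endothelial one.

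Of the regulators none passed and in none were the groups apart. Ppara, the receptor PPAR-alpha that drives these genes in fasting liver, read 6.49, 6.60, 6.39 and 6.49 on allogeneic arrays 1 to 4, against 5.72, 6.62, 4.69 and 5.61 on syngeneic arrays 1 to 4. The allogeneic arrays were alike, while syngeneic array 2 was above all of them and array 3 far below, giving 0.83 ± 0.32 SE, limma adjusted p = 0.294. Ppargc1a, which encodes the coactivator PGC-1alpha, read 7.45, 7.68, 7.09 and 7.98 on allogeneic arrays 1 to 4, against 6.85, 7.14, 6.90 and 5.57 on syngeneic arrays 1 to 4. Its change was 0.94 ± 0.32 SE, limma adjusted p = 0.241, with syngeneic array 4 far below the rest and syngeneic array 2 above allogeneic array 3. The change of Ppara was 0.32 without syngeneic arrays 3 and 4, 0.50 with the epithelial and 0.49 with the endothelial covariate. That of Ppargc1a was 0.56, 0.29 and 0.46 in these fits.

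Pparg, the receptor known from adipocytes and also abundant in colon epithelium, read 8.36, 8.36, 8.42 and 8.58 on allogeneic arrays 1 to 4, against 8.36, 8.69, 8.18 and 8.01 on syngeneic arrays 1 to 4. Ppard, the broadly expressed PPAR-delta, read 8.98, 9.01, 8.92 and 8.91 on allogeneic arrays 1 to 4, against 8.72, 8.76, 8.97 and 8.38 on syngeneic arrays 1 to 4. The values of both overlapped, with changes of 0.12 ± 0.15 SE, limma adjusted p = 0.798 for Pparg and 0.25 ± 0.14 SE, limma adjusted p = 0.469 for Ppard. The 95% interval for Pparg lay between -0.22 and 0.46.

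Among the lipid binding and droplet genes, Fabp2, the intestinal fatty acid binding protein of enterocytes, read 11.004, 10.92, 10.84 and 11.09 on allogeneic arrays 1 to 4, against 10.26, 10.40, 9.20 and 9.15 on syngeneic arrays 1 to 4. This was the largest change of the 31 genes, 2.32-fold, without overlap but not past the threshold (1.21 ± 0.27 SE, limma adjusted p = 0.0842). Syngeneic arrays 3 and 4 were more than 1 unit below syngeneic arrays 1 and 2. Without these 2 arrays the change was 0.64 and passed (limma adjusted p = 0.0404), and with the epithelial covariate it was also 0.64 and did not (0.286). Fabp1, the liver form, lay between 2.68 and 3.17 on all arrays, no higher than the top signal of Y-linked genes in these female mice (3.18), so it gave no signal to compare. Plin2, a coat protein of lipid droplets, had 0.31 ± 0.19 SE with overlap.

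Other genes around the pathway were taken from lists drawn up by function. Of 5 ketone body enzymes 3 were measured and none passed, with Acat1, the mitochondrial acetoacetyl-CoA thiolase, at 0.65 ± 0.16 SE, limma adjusted p = 0.109 and Oxct1, which activates acetoacetate for use, at 0.48 ± 0.14 SE, limma adjusted p = 0.163. Both were higher on all allogeneic arrays. With the epithelial covariate their changes were 0.36 for Acat1 and 0.29 for Oxct1. All 12 further mitochondrial acyl-CoA enzymes had positive changes between 0.03 and 0.75 and none passed. Acad11 had 0.75 ± 0.24 SE (0.47 without syngeneic arrays 3 and 4) and Gcdh, which degrades glutaryl-CoA, 0.49 ± 0.15 SE.

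Of 14 measured further synthetases and thioesterases 1 rose (7.14%, against 0.356% of all genes), and 10 had a positive and 4 a negative change. Acss2, which makes acetyl-CoA from acetate in cytosol and nucleus, read 8.36, 8.51, 8.51 and 8.41 on allogeneic arrays 1 to 4, against 7.15, 7.63, 7.21 and 6.68 on syngeneic arrays 1 to 4, a 2.42-fold rise (1.28 ± 0.18 SE, limma adjusted p = 0.0238). It lost the call with either marker covariate and without syngeneic arrays 3 and 4, at changes of 0.97, 1.02 and 1.06, and upon removal of a single array in 6 of 8 cases. Acss1, its mitochondrial counterpart, had 0.75 ± 0.20 SE and did not pass. Its change was 0.48 without syngeneic arrays 3 and 4, 0.36 with the epithelial and 0.45 with the endothelial covariate. The thioesterase gene Acot9, named after its values were seen, was lower on all allogeneic arrays at -0.61 ± 0.24 SE and did not pass (limma adjusted p = 0.313).

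None of 8 genes of carnitine supply and malonyl-CoA passed. The peroxisomal carnitine octanoyltransferase gene Crot had 0.67 ± 0.18 SE and Mlycd, which removes malonyl-CoA, 0.48 ± 0.15 SE. Further PPAR target genes had no common direction: 5 of 15 measured were positive and 10 negative, with a median change of -0.17 and none called. Ehhadh, the peroxisomal bifunctional enzyme, had 0.64 ± 0.18 SE (0.41 with the endothelial covariate) and Plin5, a droplet protein of oxidative tissue, -0.46 ± 0.17 SE. Of 13 measured receptors and coregulators 11 were positive and none passed. The deacetylase genes Sirt3 and Sirt1 had the smallest p-values in that list, at 0.38 ± 0.15 and 0.34 ± 0.15 SE.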

How the data were processed

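The deposited table holds log2 signals for each probe set of 8 arrays. Per the submitters' processing notes, Affymetrix Expression Console 1.4.1 and RMA were used. This method corrects background, makes the arrays' distributions equal and summarizes probes. For genome build and probe annotation, the sources used here give nothing. Values ran between 1.39 and 13.9, with array medians of 4.68 to 4.79. No detection calls were at hand, and depth does not apply to arrays: the 4 arrays per group limit the precision.

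Probe sets were named from GEO's platform annotation. Of 41345, 23521 had exactly 1 symbol, 1814 several and 16010 none, and 22180 genes were fitted in limma 3.58.1 (R 4.3.3; lmFit, eBayes with an intensity trend, no filter). Adjustment was by Benjamini-Hochberg across all of them, with 0.05 as the threshold, and intervals are 95% intervals of the fit. The fitting code was tested on simulated arrays.

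Every member is named. Values on each array are printed for called members, members without overlap, the acyl-CoA dehydrogenases, Cpt1a, Cpt2, Hadhb and the regulators. In each further list the called genes and up to 2 with the smallest p are named, with array values for the called Acss2 only. The members, lists, markers and alternatives were chosen with earlier results of these data known, so no test was made of a list. CCAAT and GGGCGG were added as motifs after the data were seen. Alternatives covered the variance prior, dim genes, scaling, array weights, probe set rule, replicate block, threshold, marker covariates and arrays left out. No batch or date came with the values.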

Additional observations from a re-analysis of the deposited data

Results flagged for a closer look

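In each group of 4 arrays the highest and lowest value of each of the 31 genes was set against the other 3 by Dixon's ratio, and 2 of the 62 groups held an array that stood apart. Chance alone marks about 1 in 20 such groups. Cpt1c was 7.03 on allogeneic array 4, where the other allogeneic arrays lay between 6.09 and 6.11. Etfa was 10.58 on allogeneic array 1, just below the other allogeneic arrays at 10.74 to 10.75, a gap that stood out only because those 3 were nearly equal.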

How the results depend on the processing

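The count of 4 higher members was 2 after quantile normalization of the gene table (Hadha and Acaa2), 2 without syngeneic arrays 3 and 4 (Hadha and Fabp2), 1 with the replicate number as a block (Acaa2), and 0 with all probe sets fitted, with gene-wise variances, or with the epithelial or the endothelial covariate. At an unadjusted p below 0.05 these 4 last fits had 17, 15, 10 and 11 higher members of 31, where 7.16%, 6.93%, 5.25% and 6.1% of all genes were higher, and the fit without syngeneic arrays 3 and 4 had 12, with 6.2% of all genes. Leaving out 1 array gave 0 to 6, with 0 without allogeneic array 1, 2 or 4 or syngeneic array 1 or 3. Over all genes, 79 higher and 25 lower became 143 and 54 among genes with a mean above 5, 203 and 102 at an adjusted p below 0.1, 11 and 6 with all probe sets, 0 and 0 with gene-wise variances, 26 and 12 without syngeneic arrays 3 and 4, 4 and 3 with the epithelial and 16 and 9 with the endothelial covariate. Higher calls were 46 after quantile normalization and 40 with the block, and lower calls 39 with array weights; leaving out 1 array gave 4 to 145 and 4 to 35. The titles' replicate numbers did not pair the arrays: same-numbered deviations correlated at -0.096 to 0.095, and 3 of 8 arrays correlated best with their own number. Samples share only a number, so the block is an alternative only. The long chain median of 0.21 was 0.018 without syngeneic arrays 3 and 4, 0.0088 with the epithelial and 0.065 with the endothelial covariate.

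Changes of sign occurred in genes that never passed and in 1 step. Without syngeneic arrays 3 and 4, with the epithelial and with the endothelial covariate, the change was 0.068, 0.21 and 0.11 for Slc27a3, -0.10, -0.18 and -0.098 for Slc27a4, -0.23, -0.20 and -0.16 for Cpt2, -0.013, -0.014 and -0.0030 for Acadl, and -0.093, -0.14 and -0.057 for Pparg. Cpt1c was 0.070 and 0.13 with the covariates and Eci2 -0.059 without both arrays. Array weights gave -0.050 for Slc27a4, -0.019 for Cpt2 and -0.050 for the uptake and activation median. Leaving out 1 array gave -0.077 to 0.12 for Slc27a4, -0.040 to 0.20 for Cpt2, -0.021 to 0.26 for Eci2, -0.12 to 0.043 for Fabp1 and -0.028 to 0.087 for that median. The cause was not tested. Of the other single-gene values, 816 kept direction and side of the threshold, 56 lost a call and 3 gained one.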

Other observations

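The CG-rich box GGGCGG, a motif chosen after the sequences were seen, was in 72.7% of the 33 promoter windows of the measured genes and in 35.7% of all 32851 windows. CCAAT was in 48.5% and 37.4%. Neither Fabp2 nor Acadm had GGGCGG in the 250 bases before its start. Of these bases 35.6% were G or C for Fabp2, against 64% for Acadm, 60.4% for Acads and 59.6% for Cpt1a. The median over all windows was 52.4%.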
